A study of Mus musculus with 7 samples.

Results

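The 10 genes described here encode the transcription factors that direct crypt cells to the secretory fate and give Paneth and goblet cells their form: Atoh1, Gfi1, Spdef, Sox9, Sox4, Creb3l1, Bhlha15, Foxa1, Foxa2 and Foxa3. They were chosen as a list of names, with earlier results of these data known, and all 10 were found among the 52550 genes of the count files. RNA was measured in 7 libraries of Paneth cells sorted from small-intestinal crypts, the granule-filled secretory cells at the crypt base. All mice carried Lgr5-EGFP-IRES-CreERT2, a reporter and inducible Cre allele at the stem cell gene Lgr5, and were of the C57BL/6J strain. For 7 days, mice of the DSS group (4 libraries, DSS 1 to 4, ages 12, 10, 10 and 10 weeks) were given 3% dextran sulfate sodium, which damages gut epithelium, and tissue was taken 3 days after it was withdrawn. Mice of the control group (3 libraries, water 1 to 3, ages 12, 12 and 10 weeks) received water.

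Secretory fate is set in crypt cells by lateral inhibition: cells with active Notch signalling make the repressor Hes1 and become absorptive, and cells that escape it switch on Atoh1, a basic helix-loop-helix (bHLH) factor. Gfi1, a zinc finger repressor downstream of Atoh1, turns such cells away from the enteroendocrine fate and towards the goblet and Paneth fates, and the ETS factor Spdef promotes maturation of both. Sox9, a Wnt-induced HMG box factor, is required for Paneth cells to form. Creb3l1, an endoplasmic reticulum-anchored factor, and Bhlha15, also called Mist1, enlarge the secretory apparatus, while the forkhead factors Foxa1, Foxa2 and Foxa3 open chromatin in gut epithelium.

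Total counts ran from 23175708 to 32451653 per library, and single members from 417 counts (Gfi1 in water 1 and water 3) to 10718 (Bhlha15 in DSS 2). Levels between libraries are given as CPM, counts scaled to a common library size after TMM normalisation, which corrects for the few granule genes that take up much of each library. Whether each library is its own animal is not stated, so p-values reflect only how far these libraries spread. RNA isolation days (14, 14 and 21 November for the water libraries, 9, 16, 16 and 24 November for the DSS libraries) each held 1 group, so day and group cannot be told apart. The lane 6 label covered every water library but, within the DSS group, DSS 4 alone. Lane and group therefore cannot be told apart for DSS 1 to 3, and the part of lane in any group difference was not tested. All 12 Paneth markers were detected, and their summed level was 238020 to 255415 CPM in water and 117090 to 203399 CPM in DSS. Markers of other cells that the gate could have held were present, those of tuft and enteroendocrine cells in unequal amounts. Summed tuft cell markers were 533 to 604 CPM in water but 538, 1021, 1026 and 514 CPM in DSS 1 to 4, and summed enteroendocrine markers were 75.5 CPM in water 1 against 824 to 3201 CPM in the other 6 libraries. Goblet markers summed to 9884 to 11063 CPM in water and 7834 to 13030 CPM in DSS. Stem cell markers summed to 4405 to 5271 CPM in water and 4245 to 5230 CPM in DSS. For enterocyte markers the sums were 843 to 942 CPM in water and 813 to 946 CPM in DSS. Fibroblast markers summed to at most 0.353 CPM in any library, and leukocyte markers other than Lyz2, which Paneth cells also express, to between 10.2 and 20.03 CPM. In bulk samples, fewer cells of a type and less RNA per cell cannot be told apart.

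For 9 of the 10 factors, levels in DSS and water overlapped, and for Sox4 they did not. At an edgeR quasi-likelihood p adjusted by Benjamini-Hochberg over 17449 genes, 0 of the 10 passed 0.05, as did 0% of all genes tested, and 1 of the 10, Sox4, had an unadjusted p under 0.05, beside 15.7% of all genes in either direction. Likewise 1 of 10 lay higher in all 4 DSS libraries than in all 3 water libraries, beside 7.40% of all genes, and 0 of 10 lay lower in all 4, beside 7.51% (14.9% in either direction). A share of 1 in 10 is near this background and is no result about the group of factors. The median log2 change of the 10 was 0.007, against -0.002 over all genes. Estimates ran from -0.19 (Foxa2) to 0.44 (Sox4), with 6 above 0, beside 49.7% of all genes, and 4 below.

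**Figure D1:**
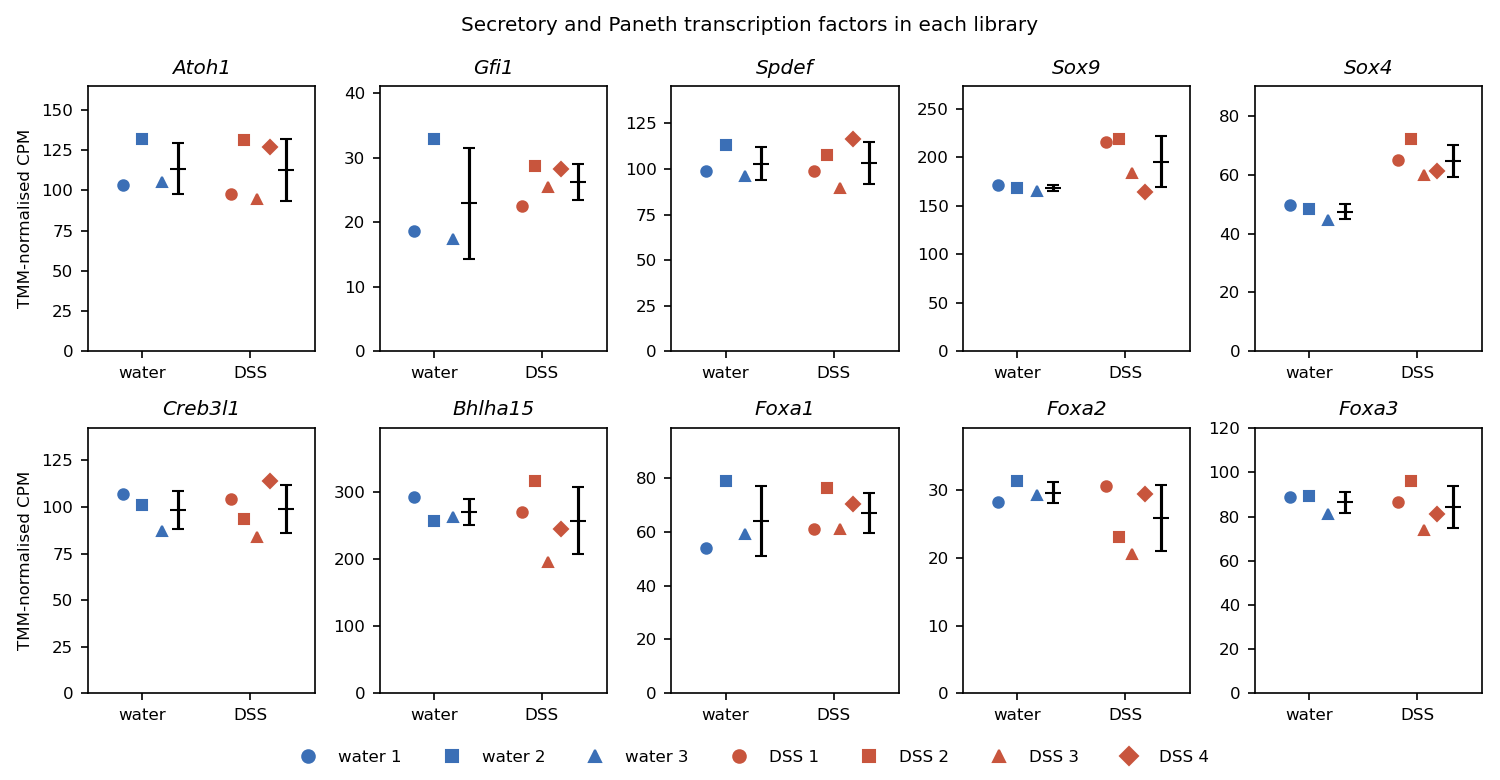
TMM-normalised CPM (y axis, from 0) of each factor in the 3 water (blue) and 4 DSS (red) libraries; symbols mark libraries, and the bar beside each group is its mean ± SD. Only for Sox4 do the groups not overlap, with water at 44.5 to 49.7 CPM and DSS at 59.9 to 72.0 CPM.

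The upstream regions of the members are shown first where a searched motif was found. The windows of RefSeq (GRCm38.p6) run from 250 bases before to 50 after a gene's start and matched 8 of the 10 members with 11 windows, since Foxa2 and Gfi1 have several starts; Sox9 and Creb3l1 are named only. Motifs that these factor families are known to bind were searched on both strands: for bHLH factors the E-box CAGCTG with its variants of other central bases, CAGATG and also the form CATATG. The others were TGTTTAC for forkhead factors, the letters ACAATG for Sox factors, TGACGT for the CREB family, and the N-box CACGAG for Hes repressors. E-box forms with other central bases, such as CAGGTG, were not searched, and CAGGTG stands unmarked in the Bhlha15 stretch. The motifs do not overlap each other in the sequences printed. The stretches shown stop before the first transcribed base of either annotation, run 5′ to 3′ on the gene's strand, and carry the motifs in capitals.
Sox4, chr13:28953714-28953949, minus strand: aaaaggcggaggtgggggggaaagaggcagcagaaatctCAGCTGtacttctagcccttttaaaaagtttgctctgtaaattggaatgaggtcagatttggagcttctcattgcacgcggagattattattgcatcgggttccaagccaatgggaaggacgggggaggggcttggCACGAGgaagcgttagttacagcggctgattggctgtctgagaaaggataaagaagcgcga
Bhlha15, chr5:144190036-144190285, plus strand: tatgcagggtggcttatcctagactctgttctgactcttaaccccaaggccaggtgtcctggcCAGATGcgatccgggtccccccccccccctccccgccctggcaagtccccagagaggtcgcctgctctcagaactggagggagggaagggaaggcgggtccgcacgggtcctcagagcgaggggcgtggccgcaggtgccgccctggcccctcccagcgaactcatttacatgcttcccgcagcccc
Spdef, chr17:27728952-27729201, minus strand: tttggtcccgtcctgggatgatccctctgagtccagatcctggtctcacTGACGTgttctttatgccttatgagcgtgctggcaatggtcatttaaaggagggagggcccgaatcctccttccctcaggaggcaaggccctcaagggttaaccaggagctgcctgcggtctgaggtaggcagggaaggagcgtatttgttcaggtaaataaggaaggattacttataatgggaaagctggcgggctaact
The Sox4 window held CAGCTG at -211 and CACGAG at -75 from the RefSeq start, motifs found in 16.3% and 6.47% of all 32851 windows. Bhlha15, itself a bHLH gene, held CAGATG at -187 (17.1% of all windows) and Spdef held TGACGT at -201 (7.51%). Foxa1, whose window lies inside the gene model of the count files and is not printed, held the forkhead letters TGTTTAC at -141 (3.65%). None of the 7 motifs was found in the windows of Atoh1, Gfi1, Foxa2 or Foxa3, and the motifs CATATG (3.92% of all windows) and ACAATG (12.6%) in no member's window. These matches describe letters only.

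Atoh1, the factor that starts secretory commitment, was at 103, 132 and 105 CPM in water 1 to 3 and at 97.5, 131, 94.3 and 127 CPM in DSS 1 to 4. The groups overlapped over almost their whole range: water 2, DSS 2 and DSS 4 were high, and the other 4 libraries lay between 94.3 and 105 CPM. Group means were 113 ± 16.0 (water, n = 3) and 112 ± 19.2 CPM (DSS, n = 4; ± is the SD), and the log2 change of -0.01 ± 0.14 (± SE from the fit) had an edgeR adjusted p of 0.982. The 95% interval of the fold ran from 0.797 to 1.24. The gene has 1 exon of 2121 bases on the plus strand of chromosome 6, from 64729125 to 64731245 (mm10, ENSMUSG00000073043.5).

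Gfi1, the repressor downstream of Atoh1, was the least precisely measured member, with 18.6, 32.9 and 17.5 CPM in water and 22.6, 28.8, 25.5 and 28.2 CPM in DSS. The DSS libraries lay between water 2 and the other 2 water libraries. Its log2 change was 0.20 ± 0.21 (edgeR adjusted p = 0.699), and the interval of the fold, 0.830 to 1.58, leaves room for a lower level as well as for one more than 1.5 times higher. Single water libraries moved the estimate, which was 0.54 without water 2, 0.064 without water 1 and 0.034 without water 3, and it was 0.65 over 10-week mice only, with edgeR adjusted p-values between 0.314 and 0.971. Gfi1 maps to the minus strand of chromosome 5, bases 107716657 to 107726036 (mm10), with 8 exonic blocks.

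Spdef, which drives maturation of goblet and Paneth cells, was at 99.1, 113 and 96.4 CPM in water and 99.2, 108, 89.6 and 116 CPM in DSS. It was the member with the smallest estimate, a log2 change of 0.01 ± 0.10 (edgeR adjusted p = 0.986), and the interval of the fold ran from 0.861 to 1.17. Spdef maps to the minus strand of chromosome 17, bases 27714352 to 27728951 (mm10). Its level per length relative to Atoh1 was also steady from library to library, between 0.833 and 0.932 in water and between 0.797 and 0.986 in DSS.

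Sox9, needed for Paneth cell formation, was at 172, 169 and 165 CPM in water and at 216, 219, 184 and 164 CPM in DSS. DSS 1, DSS 2 and DSS 3 lay above all water libraries and DSS 4 just below them. Group means were 168 ± 3.42 CPM for water and 196 ± 26.2 CPM for DSS (SD, n = 3 and n = 4), so the spread in DSS was the wider. Its log2 change was 0.22 ± 0.10 (edgeR adjusted p = 0.351), with a fold interval from 0.989 to 1.37, and with DSS 4 alone against the water libraries, the only libraries named for lane 6, the estimate was -0.04. DSS 1 to 3, which lay above water, were not named for lane 6, and the part of lane in the Sox9 values was not tested. Sox9 maps to the plus strand of chromosome 11, bases 112782224 to 112787760 (mm10).

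Sox4, an HMG box factor known in intestinal secretory differentiation and in tuft and enteroendocrine progenitors, was at 49.7, 48.2 and 44.5 CPM in water and at 65.0, 72.0, 59.9 and 61.2 CPM in DSS. Every DSS library lay above every water library, and the gap between the groups, from 49.7 to 59.9 CPM, was wider than the whole range in water. Water averaged 47.5 ± 2.68 CPM (SD, n = 3) and DSS 64.5 ± 5.44 CPM (SD, n = 4), which gave a log2 change of 0.44 ± 0.08, or 1.36-fold with an interval from 1.20 to 1.54. By edgeR p-value this difference ranked 40 of 17449 genes, and its Benjamini-Hochberg adjusted p was 0.123. DESeq2 called Sox4 (adjusted p = 0.000526), beside 4.84% of all genes in either direction and 2.61% higher in DSS. edgeR without a low-count filter also called it (adjusted p = 0.00825), beside 1.26% of all genes and 0.684% higher in DSS. With library totals only, Sox4 and Sox9 were called (edgeR adjusted p = 0.0350 for each), beside 12.2% of all genes and 12.1% higher in DSS. Of the settings tried for Sox4, these 3 gave a call, and the adjusted p over all the settings tried ran from 0.000526 to 0.440. Summed tuft markers were higher in DSS 2 and DSS 3, and in DSS 1 (538 CPM) and DSS 4 (514 CPM) within or below the water range of 533 to 604 CPM. The part of tuft cells in the Sox4 values was not tested. DSS 4 alone against the water libraries, all of lane 6, gave a log2 change of 0.36 for Sox4. The part of lane in the Sox4 values of DSS 1 to 3 was not tested.

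The Sox4 gene, 1 exon of 4795 bases on the minus strand of chromosome 13 from 28948919 to 28953713, needs a caution on its level. The antisense gene Gm26735 covers 2616 of these bases, 54.6%, and was listed with 0 counts over all 7 libraries. Counting used no strand option, and featureCounts by default leaves a read unassigned that fits 2 genes equally well. Set over the 2179 bases that no other gene covers, Sox4 would be at 21.5 TPM in water and 39.4 TPM in DSS in place of 9.78 and 17.9 TPM. TPM divides counts by gene length and rescales each library to the same total. The fold between groups does not depend on the length used.

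The relation of the 2 Sox factors within a library does not depend on scaling. Per length, Sox4 stood to Sox9 at 0.250, 0.247 and 0.233 in water and at 0.260, 0.284, 0.281 and 0.322 in DSS, all 4 above all 3, with the lowest DSS value close to the highest water value. Of 19 Sox genes, 5 reached 1 TPM on average over the 7 libraries. Sox9 and Sox4 held 79.7% of the family's summed TPM, followed by Sox13 and Sox6. In water alone Sox13 (9.85 TPM) and Sox4 (9.78 TPM) were level, before any allowance for the overlapped bases of Sox4.

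Bhlha15, the bHLH factor of professional secretory cells, was the most abundant member per length in every library. It was at 292, 256 and 262 CPM in water and at 270, 316, 196 and 245 CPM in DSS, so that DSS libraries lay both above and below the water range. Its log2 change was -0.08 ± 0.14 (edgeR adjusted p = 0.849), with a fold interval from 0.758 to 1.19. Bhlha15 maps to the plus strand of chromosome 5, bases 144190286 to 144194441 (mm10), with 2 exonic blocks. Creb3l1, the membrane-anchored factor of collagen- and mucus-secreting cells, was at 107, 101 and 86.9 CPM in water and 104, 93.4, 83.8 and 114 CPM in DSS, a log2 change of 0.01 ± 0.11 (adjusted p = 0.982) with a fold interval from 0.844 to 1.20. It maps to the minus strand of chromosome 2, bases 91982328 to 92024502 (mm10), in 12 exonic blocks. Relative to Bhlha15, the level of Creb3l1 per length was 0.445 to 0.528 in water and 0.397 to 0.624 in DSS.

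The 3 Foxa factors overlapped between the groups. Foxa3 was at 88.9, 89.3 and 81.0 CPM in water and 86.4, 96.1, 73.9 and 81.1 CPM in DSS, a log2 change of -0.03 ± 0.09 (edgeR adjusted p = 0.898; fold interval 0.848 to 1.12). Foxa1 was at 54.1, 78.8 and 59.1 CPM in water and 61.0, 76.0, 60.9 and 70.2 CPM in DSS, a change of 0.07 ± 0.13 (edgeR adjusted p = 0.855; 0.850 to 1.29). Water 2 was the highest of the 7 libraries for Foxa1, as it was for Atoh1, Gfi1 and Foxa2.

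Foxa2 was at 28.2, 31.3 and 29.3 CPM in water and 30.5, 23.1, 20.5 and 29.4 CPM in DSS. DSS 2 and DSS 3 lay below all water libraries and DSS 1 and DSS 4 within their range, which gave a log2 change of -0.19 ± 0.14 (edgeR adjusted p = 0.530; fold interval 0.707 to 1.08). Enteroendocrine cells also express Foxa1 and Foxa2, and their markers summed to 75.5 CPM in water 1 and to 824 to 3201 CPM in the other libraries; their part in the Foxa levels was not tested. DSS 2 and DSS 3 were also the libraries with more tuft marker RNA, whose part in the Foxa2 values was not tested. Of the Foxa family's summed level per length, Foxa3 held 57.3% ± 3.24 for water and 57.1% ± 2.04 for DSS (SD, n = 3 and n = 4), and Foxa2 held 16.9% ± 0.694 and 15.1% ± 2.55. Foxa3 was the most abundant of all 44 forkhead genes, of which 16 reached 1 TPM. The genes lie on chromosome 12 from 57540628 to 57546916 (Foxa1), chromosome 2 from 148042877 to 148046969 (Foxa2) and chromosome 7 from 19013284 to 19023538 (Foxa3), all on the minus strand.

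**Figure D2:**
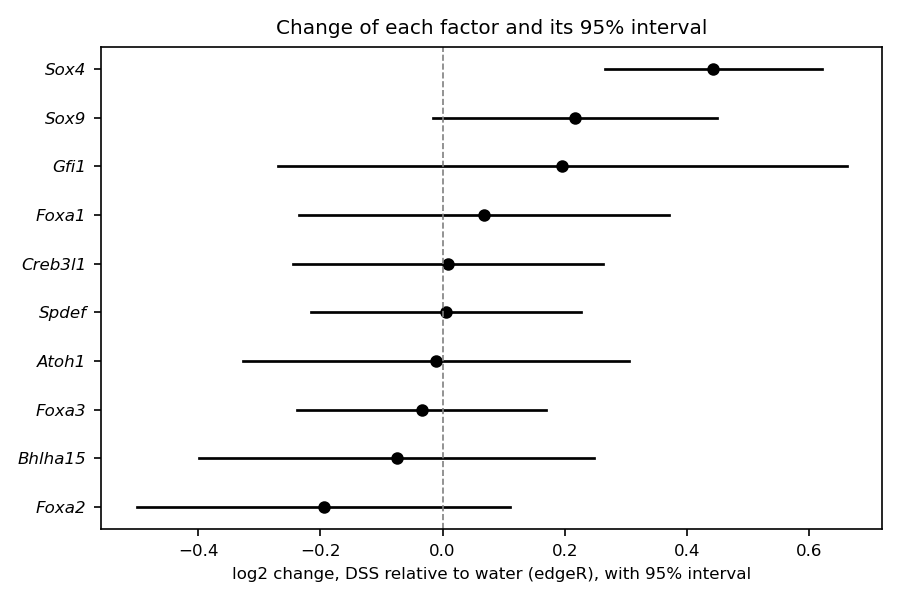
Log2 change of each factor in DSS relative to water (x axis, edgeR, points) with its 95% interval (lines), ordered by the estimate. The interval of Sox4 (0.27 to 0.62) is the only one that does not include 0.

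For the 9 factors other than Sox4, all intervals included a fold of 1. The narrowest were those of Spdef and Foxa3, and the widest that of Gfi1. Besides Gfi1, the upper ends of the fold were at most 1.37 (Sox9) and the lower ends at least 0.707 (Foxa2).

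Per length, the order in water was Bhlha15 (76.5 TPM), Atoh1 (52.7), Spdef (46.4), Foxa3 (41.9), Sox9 (40.2), Creb3l1 (37.3), Foxa1 (18.9), Foxa2 (12.3), Sox4 (9.78) and Gfi1 (7.08 TPM). In water Bhlha15 lay apart from Atoh1, Creb3l1 from Foxa1, Foxa1 from Foxa2 and Foxa2 from Sox4, while the ranges of the other neighbours overlapped. In DSS, Sox9 (62.4 TPM) was above Foxa3 (54.9 TPM) in 3 of 4 libraries, and Sox4 (17.9 TPM) was above Foxa2 (14.4 TPM) in all 4. The place of Sox4 in this order depends on the overlapped bases given above. TPM values of all 10 were higher in DSS on average; TPM has no TMM scaling. With library totals only, the median log2 change was 0.24 for the 10 factors and 0.23 for all genes.

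**Figure D3:**
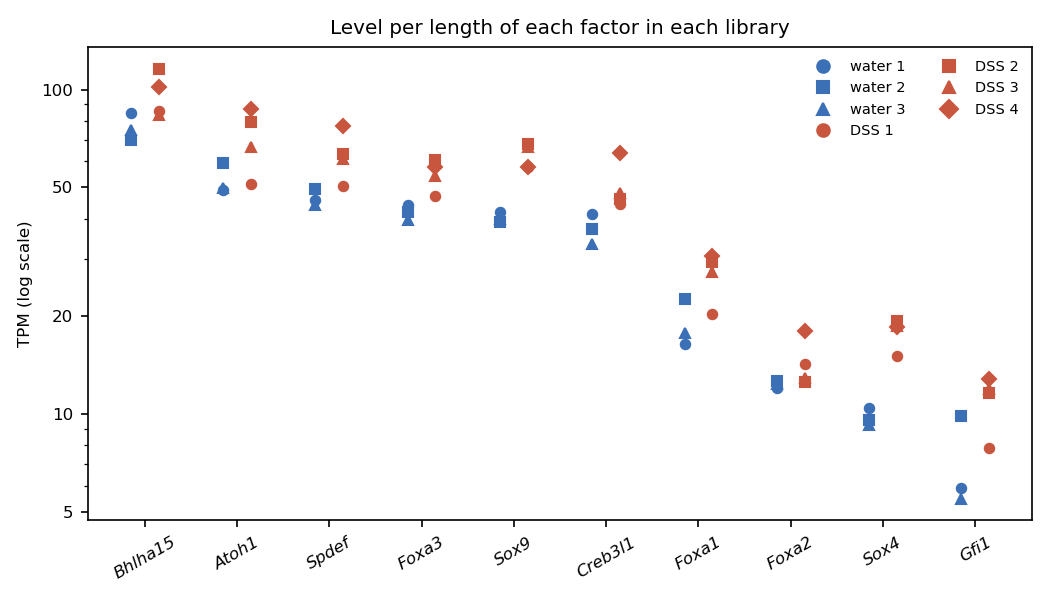
Level per length (TPM, log axis) of each factor in each library, in the order of the water means, with water in blue and DSS in red. Bhlha15 is the highest in every library, and the DSS points lie higher for most factors on this scale, which is not TMM-scaled.

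Single libraries stood above or below the others for many members at once. Relative to the water mean, the median of the 10 factors was, on the log2 scale, -0.01, 0.07 and -0.09 for the water libraries in turn and 0.02, 0.22, -0.21 and 0.16 for the DSS libraries. DSS 3 was the lowest of the 7 libraries for 6 members, and DSS 2 and water 2 were the highest for 4 each. The pairs that ran most closely together over the 7 libraries were Bhlha15 with Foxa3 (Pearson r = 0.915), Atoh1 with Spdef (0.911), Gfi1 with Foxa1 (0.901) and Atoh1 with Foxa1 (0.874). The lowest was Sox4 with Foxa2 (-0.466). These values describe 7 libraries that share their depth and scaling between genes. Among 9120 other genes of at least 3 on the log2 CPM scale, those most like a member over the 7 libraries included Arpc4 for Sox4 (r = 0.997), Crcp for Gfi1 (0.986), Ppp2r1b for Foxa3 (0.986), Zcchc2 for Spdef (0.985), Ralgapb for Bhlha15 (0.980) and Mid1ip1 for Atoh1 (0.964). Each r is the largest of 9120 over only 7 libraries, so it was picked for being high and was not tested.

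The partners of the bHLH members were examined next. Atoh1 and Bhlha15 bind DNA as dimers with E proteins (Tcf3, Tcf4 and Tcf12), and the Id proteins sequester these partners. Of the 7 genes, 0 passed the adjusted p, 4 had an unadjusted p under 0.05 with a higher level in DSS (8.36% of all genes did) and 1 with a lower level (7.35%). The median log2 change was 0.32, the value of Tcf3, and 4 of the 7 estimates were above 0, beside 49.7% of all genes. Those below 0 were Tcf12, Tcf4 (-0.16) and Id4 (-0.14). Id3 was at 9.64, 11.3 and 13.2 CPM in water and 14.9, 19.7, 18.5 and 23.3 CPM in DSS (log2 change 0.75 ± 0.16, edgeR adjusted p = 0.138). Id1 was at 14.1, 12.5 and 13.8 CPM in water and 15.9, 21.8, 20.4 and 22.7 CPM in DSS (0.58 ± 0.13, adjusted p = 0.138). For both, DSS 1 was the DSS library nearest to water. Tcf3 had a log2 change of 0.32 ± 0.07 (edgeR adjusted p = 0.138) and Tcf12 one of -0.30 ± 0.10 (adjusted p = 0.203), with no overlap between the groups in either. DESeq2 called Id3, Id1 and Tcf3 (adjusted p = 0.00146, 0.0040 and 0.00689).

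Genes known downstream of Atoh1 gave no calls, as no gene of the fit did. Of the 8 that are not members, 0 had an unadjusted p under 0.05, beside 15.7% of all genes. Likewise 0 lay wholly above or below water, beside 14.9%. With 8 genes, these counts are near the shares over all genes. Estimates were above 0 for 7 of the 8, against 49.7% of all genes, with a median log2 change of 0.19. Among those above 0, Neurod1 was at 1.20, 19.7 and 28.4 CPM in water and 13.1, 9.60, 23.4 and 29.1 CPM in DSS. Insm1 was at 2.54, 17.2 and 22.5 CPM in water and 14.9, 10.2, 14.8 and 20.3 CPM in DSS. Both were lowest in water 1, the library with the least enteroendocrine marker RNA, whose part in these values was not tested. Neurod1 is itself one of the enteroendocrine markers summed. Dll4, a Notch ligand of crypt secretory cells, had a log2 change of 0.27 ± 0.16 (edgeR adjusted p = 0.464), and Neurog3, the enteroendocrine switch, was low, at 1.52 ± 0.303 CPM for water and 2.57 ± 1.42 CPM for DSS (SD, n = 3 and n = 4), with another gene over 16.3% of its exonic bases. On the opposing side, 8 of 11 Notch effectors and repressors of Atoh1 were tested; Hes5, Hey1 and Hey2 did not pass the filter on low counts. Of the 8, 2 had an unadjusted p under 0.05 and a higher estimate (8.36% of all genes did), and 1 a lower one (7.35%). Notch1, the receptor, was at 59.8, 46.9 and 43.8 CPM in water and 69.9, 55.6, 65.6 and 69.8 CPM in DSS (log2 change 0.38 ± 0.12, edgeR adjusted p = 0.202), so DSS 2 lay below water 1. Nrarp, a Notch target, had a log2 change of 0.46 ± 0.17 (edgeR adjusted p = 0.247), and 79.4% of its exonic bases are covered by another gene. Heyl, a Hes-related target, was lower in all DSS libraries at 1.44 to 3.18 CPM against 4.04 to 5.91 CPM (-0.95 ± 0.26, adjusted p = 0.171; DESeq2 adjusted p = 0.0264).

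Gfi1 acts by recruiting the demethylase Kdm1a, Rcor scaffolds, histone deacetylases and the methyltransferase Ehmt2. Of these 7 corepressor genes and the paralogue Gfi1b, 0 passed the adjusted p, and 3 of 8 had an unadjusted p under 0.05, all higher in DSS, as 8.36% of all genes did. Kdm1a was at 53.4 to 60.4 CPM in water and 62.4 to 66.2 CPM in DSS (log2 change 0.16 ± 0.06, edgeR adjusted p = 0.269), and Rcor2 had a log2 change of 0.58 ± 0.18 (adjusted p = 0.200). Gfi1b, a factor of tuft cells, was at 2.01, 2.55 and 2.06 CPM in water and 2.69, 4.12, 4.81 and 2.61 CPM in DSS (0.70 ± 0.25, adjusted p = 0.241), highest in DSS 2 and DSS 3, where the tuft markers were high. It is itself 1 of the 10 tuft markers summed, so this match is in part built in.

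For the relatives of Creb3l1, estimates lay on 1 side of 0. All 9 tested relatives, which are endoplasmic reticulum-anchored factors, their activating proteases and Xbp1, had estimates below 0, while 49.7% of all genes were above 0. Of the 9, 3 had an unadjusted p under 0.05 and lay lower in all DSS libraries (7.35% and 7.51% of all genes did). The median was -0.13, and 0 passed the adjusted p. Xbp1, the splice-activated factor that drives secretory capacity and Bhlha15, was at 309, 381 and 331 CPM in water and 288, 233, 231 and 259 CPM in DSS (log2 change -0.43 ± 0.10, edgeR adjusted p = 0.142). Creb3l2 was at 91.2, 84.6 and 82.8 CPM in water and 79.7, 64.6, 51.6 and 52.8 CPM in DSS (-0.47 ± 0.14, adjusted p = 0.187). Atf6 was at 112 to 124 CPM in water and 85.4 to 110 CPM in DSS (-0.29 ± 0.09, adjusted p = 0.187). DESeq2 called Xbp1 and Creb3l2 (adjusted p = 0.00472 and 0.0310). The proteases Mbtps1 and Mbtps2 were at -0.01 and -0.02. Creb3l3 was at -0.002, with an interval from -1.31 to 1.31, and Creb3l1 itself, a member left out of this list, was at 0.01. The summed Paneth markers were lower in all DSS libraries, with 4 of the 12 markers wholly below water and others not (Ang4 was at 10710 and 16890 CPM in DSS 1 and DSS 2 against 8964 to 9775 CPM in water), and their part in these values was not tested. The side of 0 depends on the scaling: with library totals only, the median of this list was 0.10, beside 0.23 over all genes.

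Of the 6 genes tied to Bhlha15, Xbp1 and 5 known targets, 0 passed the adjusted p and 2 had an unadjusted p under 0.05, both lower in DSS (7.35% of all genes did), with a median of -0.35. They were Xbp1, already counted above, and Rab3d. Rab3d, a small GTPase of secretory granules, was at 289, 301 and 285 CPM in water and 270, 259, 205 and 234 CPM in DSS (log2 change -0.27 ± 0.10, edgeR adjusted p = 0.239). Bhlha15 in the same libraries was lowest in DSS 3, as was Rab3d, and DSS 3 was the lowest library for 6 of the 10 members. In DSS 2, Bhlha15 was at its highest (316 CPM) while Rab3d lay below all water libraries. Of the 12 genes of the goblet programme that Spdef and Foxa factors are known to drive, 1 lay wholly above and 1 wholly below water, close to the 7.40% and 7.51% of all genes. Clca1, a secreted goblet protein, was at 74.4, 105 and 114 CPM in water and 193, 755, 210 and 585 CPM in DSS (2.16 ± 0.49, edgeR adjusted p = 0.138), with DSS 2 and DSS 4 far above the rest. Agr2, a disulfide isomerase of mucus cells, was at 946 to 1085 CPM in water and 520 to 942 CPM in DSS (-0.51 ± 0.18, adjusted p = 0.230). Muc2, the main goblet mucin, had a log2 change of -0.22 ± 0.22, with overlapping groups.

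**Figure D4:**
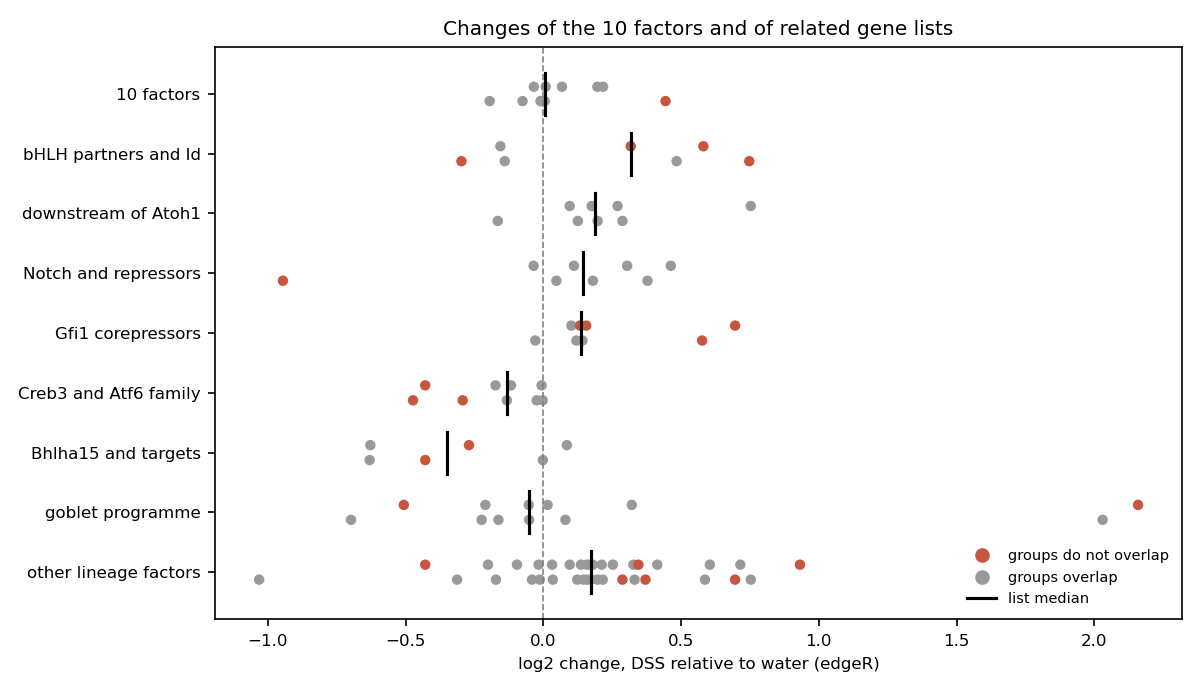
Log2 change in DSS relative to water (x axis, edgeR) of the 10 factors and of the genes of each related list (1 point a gene; red where the groups do not overlap, grey where they do; black bars are medians). The 10 factors centre on 0.007 and the bHLH partners and Id genes on 0.32, with 4 of these 7 above 0. All genes of the Creb3 and Atf6 list lie below 0 under TMM scaling, though with library totals only that list's median is 0.10.

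Among 36 other lineage factors of the intestine, 27 had estimates above 0, against 49.7% of all genes, with a median of 0.17. At an unadjusted p under 0.05, 9 were higher and 2 lower (8.36% and 7.35% of all genes), and 0 passed the adjusted p. Gfi1b among the higher and Xbp1 among the lower were already counted in lists above. Of the 9, Pou2f3, Spib and Gfi1b, named after their values were seen, were highest in DSS 2 and DSS 3. These are the libraries with more tuft marker RNA, whose part in these values was not tested. Pou2f3 and Gfi1b are tuft cell factors and are themselves among the 10 tuft markers summed, so for them this match is in part built in. Pou2f3 was at 23.9, 20.04 and 22.8 CPM in water and at 23.8, 49.3, 43.6 and 29.0 CPM in DSS. Myc, the Wnt-driven growth regulator, was at 71.7, 67.6 and 58.1 CPM in water and 78.8, 82.3, 80.1 and 92.8 CPM in DSS (log2 change 0.35 ± 0.09, edgeR adjusted p = 0.157). Ascl2, the bHLH factor of crypt base stem cells, was at 21.2, 21.3 and 16.4 CPM in water and 22.0, 26.7, 26.6 and 26.3 CPM in DSS (0.37 ± 0.11, adjusted p = 0.190). Of the 8 stem cell markers, which include Ascl2, 2 had an unadjusted p under 0.05 with a higher level in DSS and 1 with a lower level. Lgr5 was at 168, 112 and 102 CPM in water and 118, 76.6, 56.7 and 62.5 CPM in DSS. The summed stem cell markers overlapped between the groups. Cdx2, the intestinal homeobox factor, was at 86.2, 90.9 and 84.6 CPM in water and 95.5, 125, 101 and 104 CPM in DSS (0.29 ± 0.09, adjusted p = 0.207). DESeq2 called Myc, and of the goblet genes above Clca1 and Agr2 (adjusted p = 0.0217, 0.00823 and 0.0428). Within the families of the members, the other tested Sox genes had 0 higher and 1 lower of 4 at an unadjusted p under 0.05, and the other forkhead genes 1 higher and 1 lower of 17, near the 8.36% and 7.35% of all genes. Foxp4, the second most abundant forkhead gene, had a log2 change of 0.15 ± 0.06 (edgeR adjusted p = 0.274), and Foxp2 and Sox5 were the lower ones, at 0.494 ± 0.034 and 1.18 ± 0.534 CPM in water (SD, n = 3).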

How the data were processed

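The authors deposited raw counts per gene. Per the file headers, featureCounts 1.5.3 counted primary alignments over GENCODE release 15 exons, assigned each read to the gene of largest overlap, required an overlapping fraction of 0.8 and set no strand. Tools listed in the submitters' processing notes are STAR 2.5.3a, DESeq2 and featureCounts 1.5.2, with build mm10. GENCODE release 21 gave symbols for 52403 of 52550 identifiers. edgeR 4.0.16 in R 4.3.3 kept 17449 genes (filterByExpr), scaled by TMM and compared DSS with water by the quasi-likelihood test with no covariate, with a Benjamini-Hochberg threshold of 0.05; DESeq2 1.42.0 and limma 3.58.1 were alternatives. The steps were tested on simulated data. Intervals are 95% intervals of the fit. Every pair of libraries differed by more than counting noise (smallest chi-square, per degree of freedom, 14.5). Members and lists were chosen with earlier results of these data known. Lists exclude members. Named genes are the 10 members, up to 4 genes a list with the smallest p, and the genes most like a member. Of the list genes, those with an unadjusted p under 0.05 were named, or the 2 smallest where none was. Chosen after their values were seen were Muc2, Mbtps1, Mbtps2, Ang4, Pou2f3, Spib, Sox13, Tcf4, Id4, Creb3l3, Neurod1, Insm1 and Lgr5.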

Additional observations from a re-analysis of the deposited data

Results flagged for a closer look

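Among the 4 DSS libraries, 50 series (members, ratios between members, named genes and marker sums) were examined for 1 library far from the rest by the gap to its nearest neighbour over the range. In 1 of them the ratio passed Dixon's 95% limit for 4 samples, and chance alone passes it in about 1 of 20. The series was Ascl2, the stem cell factor, with a ratio of 0.909: DSS 1 was at 22.0 CPM, near the water libraries (16.4 to 21.3 CPM), and the other DSS libraries lay at 26.3 to 26.7 CPM. None of the 10 factors was so set apart.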

How the results depend on the processing

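No paired analysis was possible because replicate numbers were given in accession order and pair nothing. Of the 10 factors, Sox4 kept its direction under every alternative and passed the adjusted threshold with library totals only (0.68), DESeq2 (0.44) and no low-count filter (0.45), and Sox9 passed with library totals only (0.44). That setting moved the median of all genes to 0.23, so relative to it Sox9 was at about its reported value. Genes called higher and lower over all genes, 0 and 0 as reported with 2742 at an unadjusted p under 0.05, became 2107 and 28 with library totals only, 347 and 297 with DESeq2, 240 and 201 without a low-count filter, 3 and 6 with lane 6 only, 17 and 41 with only the 3 libraries that share a number in their titles (water 3, DSS 2 and DSS 3), and 0 and 0 with limma-voom. Leaving out single libraries gave 0 to 168 higher, the highest without DSS 1, and 0 to 135 lower. Where 1 library stands for a group, it is assumed to vary like the others. Estimates near 0 changed sign, and so did those of Sox9 (0.22 as reported), Foxa2 (-0.19) and Neurog3 (0.75). With library totals only, Atoh1 was at 0.23, Bhlha15 at 0.15, Foxa2 at 0.035 and Foxa3 at 0.20. With lane 6 only, Atoh1 was at 0.15 and Sox9 at -0.043. With 10-week mice only, Atoh1 was at 0.16 and Foxa3 at 0.049, with the libraries of the shared title number at 0.10 and 0.069 and Neurog3 at -0.23, and with age as a covariate Foxa3 was at 0.0035. Without single libraries, Atoh1 ran from -0.092 to 0.11, Spdef from -0.057 to 0.078, Creb3l1 from -0.071 to 0.080, Bhlha15 from -0.19 to 0.034, Foxa1 from -0.041 to 0.24 and Foxa3 from -0.10 to 0.025. None of these sign changes passed the threshold, and their cause was not tested.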
